A study of Drosophila melanogaster with 9 samples.

Results

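The data described here are the FLAG and CP190 ChIP-seq peaks of embryos that express Pita ΔCP1+2, a FLAG-tagged Pita that lacks both of its regions for contact with CP190. The FLAG list of this line held 7365 peaks and the CP190 list held 8429, so that 15794 of the 29281 peaks in the 4 lists of the series are covered. A window of 250 bp was drawn on each side of every summit, and a peak was called co-occupied where its window shared at least 1 bp with a window of the other list. All other peaks are called FLAG-only or CP190-only. The rule uses positions alone, so that width, fold enrichment, location, base composition and motif content stand outside it.

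Pita is a zinc-finger protein that binds specific DNA sequences and is known as an architectural protein at boundaries of the Bithorax complex and at gene promoters. CP190 does not recognise a long sequence of its own. It is brought to chromatin by several DNA-binding partners through protein contacts, and its peaks in Drosophila lie mostly at promoters and insulators. In wild-type embryos, a site bound by Pita is therefore a place where CP190 is often found, and the Pita ΔCP1+2 line asks what happens there once the contact is removed.

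The Pita ΔCP1+2 group has 2 FLAG and 2 CP190 samples, and the Pita wt group, which carries the intact tagged protein, has 2 samples for each antibody. According to the methods, both transgenes are driven by the ubiquitous Ubi-p63E promoter from the same landing site on the third chromosome and were crossed into a pita mutant background, while the labels give Oregon-R as the strain of all samples. One preimmune sample, taken from Pita wt embryos, was the control for every list, also for those of Pita ΔCP1+2. Whole embryos were used, so that the peaks of all cell types are pooled, and the labels give a collection of 12 hours whereas the methods give another window of development. The replicates of each antibody were merged into 1 list by the authors. By the self-consistency ratio in the supplement, replicates agreed less well in both Pita wt lists than in both Pita ΔCP1+2 lists. Comparisons between the lines below carry this limit. No value per replicate was analysed here and the read depth behind a peak is unknown, so no difference below could be set against a spread between replicates and no test was made. Intervals are 95% Wilson intervals over peaks, which cover counting error only.

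A first feature compared between classes is the match to the Pita recognition sequence, searched with the matrix of 21 positions given with the study. Each match has a p, which is the chance that a random word, with all bases equally frequent, reaches its score. The examples are the matches with p under 1e-06 in the strongest peaks among the sites named by rule, and a site is called by the gene with the nearest annotated start. Letters are in capitals where they carry the preferred base at 1 of the 9 positions of greatest weight, and each is written 5′ to 3′ on the strand of the match (dm6). In co-occupied FLAG peaks these were at Atg8a (chrX:10768415-10768435, minus), cib (chrX:4105864-4105884, minus) and ATPsynC (chr3R:31219696-31219716, minus). In FLAG-only peaks they were at Socs36E (chr2L:18152577-18152597, plus), Sxl (chrX:7098190-7098210, plus) and CG42788 (chr3R:15132015-15132035, minus). A CP190-only peak of rank 63, in an intron of sick and nearest to the start of CG10481, gave the last one (chr2L:19887724-19887744, plus).
Atg8a, co-occupied: atttAGCgaataCatgaACCa
cib, co-occupied: atttAGCagaGaCaCgaACCa
ATPsynC, co-occupied: gtgtAGCcagGaCttgcACCg
Socs36E, FLAG-only: ctctAGCacgGgCtCcaACCc
Sxl, FLAG-only: atttAGCgaataCaCgaACCc
CG42788, FLAG-only: acttAGCagaGaCaCgcACCg
CG10481, CP190-only: tgttAGCagataCtCaaACCa

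The printed words carry between 7 and 9 of the 9 marked bases in all classes. The co-occupied site at cib and the FLAG-only sites at Socs36E and CG42788 have all 9, and the word with the fewest is the co-occupied one at Atg8a. All printed words had passed the same score threshold of the matrix, which favours the marked bases. These counts therefore cannot tell whether the letters of the match differ between the classes.

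A second feature of the classes is base composition, for which the 30 bases around the FLAG summit are given for a pair of co-occupied coding exon peaks and a pair of FLAG-only promoter peaks, plus strand of dm6, with G and C in capitals. These 4 were chosen after their values were seen. They set coding exons beside promoters, so they do not tell class from location. Some other named sites went the other way. Co-occupied Atg8a had 11 and cib 14 of 30 bases G or C, while FLAG-only Col4a1 had 19 and lab 18. The co-occupied ones are in coding exons of nej, which encodes the histone acetyltransferase CBP, nearest to the start of CG3106 (chrX:9669949-9669978, 22 of 30 bases G or C), and of Nrx-1 (chr3R:22472774-22472803, 21 of 30). The FLAG-only ones lie next to starts of Sxl (chrX:7098152-7098181, 11 of 30) and PhKgamma (chrX:11695008-11695037, 17 of 30).
CG3106 site in nej, co-occupied: GCGaGGGCtGtGCCCtaGGCGaGGCGGatG
Nrx-1, co-occupied: GGGGtGtGGaaCGaCttCCGGaCGCCCGGt
Sxl, FLAG-only: tGttCattttCtaCaCCGCGttaGttaaGa
PhKgamma, FLAG-only: GtCttaGCtaaCtGtGCCatCCCtGGtCGG

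In the Pita ΔCP1+2 line, 5415 of the 7365 FLAG peaks (73.5%, interval 72.5 to 74.5%) were co-occupied with CP190, and 5415 of the 8429 CP190 peaks (64.2%, interval 63.2 to 65.3%) were co-occupied with FLAG. This left 1950 FLAG-only and 3014 CP190-only peaks. The equal counts were no constraint of the rule. On either side, 5396 peaks met a single window of the other list and 19 met 2, and for 5399 of the pairs each summit was the nearest one of the other. In Pita wt the co-occupied shares were 65.2% of FLAG and 68.2% of CP190 peaks. The FLAG and CP190 lists have their preimmune control in common, and its part in the shared peaks was not tested.

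The co-occupied share went with the strength of the peaks. Peaks were ranked within their list by the fold enrichment over the preimmune sample, with rank 1 for the strongest. With each list cut into 10 equal bins of rank, 87.8% of the FLAG peaks were co-occupied in the strongest bin (interval 85.2 to 90.0%) and 57.8% in the weakest (54.2 to 61.3%). The CP190 list spanned a wider range, with 93.7% (91.9 to 95.2%) in its strongest bin and 33.2% (30.1 to 36.5%) in its weakest. Across the 5415 pairs, which share a control and are not replicates, the fold ranks of the FLAG and the CP190 member had a Spearman's rho of 0.673. The median fold enrichment was 2.07 for co-occupied and 1.91 for FLAG-only peaks, and 2.17 for co-occupied CP190 peaks and 1.93 for CP190-only peaks.

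Base composition separated the classes over a wider range than strength did in the FLAG list. With 5 equal bins of the GC content of the 500 bp window, 44.8% of FLAG peaks were co-occupied in the lowest bin, which ran between 30.6 and 52.6% GC (42.2 to 47.3%), and 92.1% in the highest, between 60.4 and 71.8% GC (90.6 to 93.4%). For CP190 peaks these shares were 44.4% (42.0 to 46.8%) and 85.5% (83.7 to 87.1%). The share rose at each step of GC content in both lists.

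**Figure D1:**
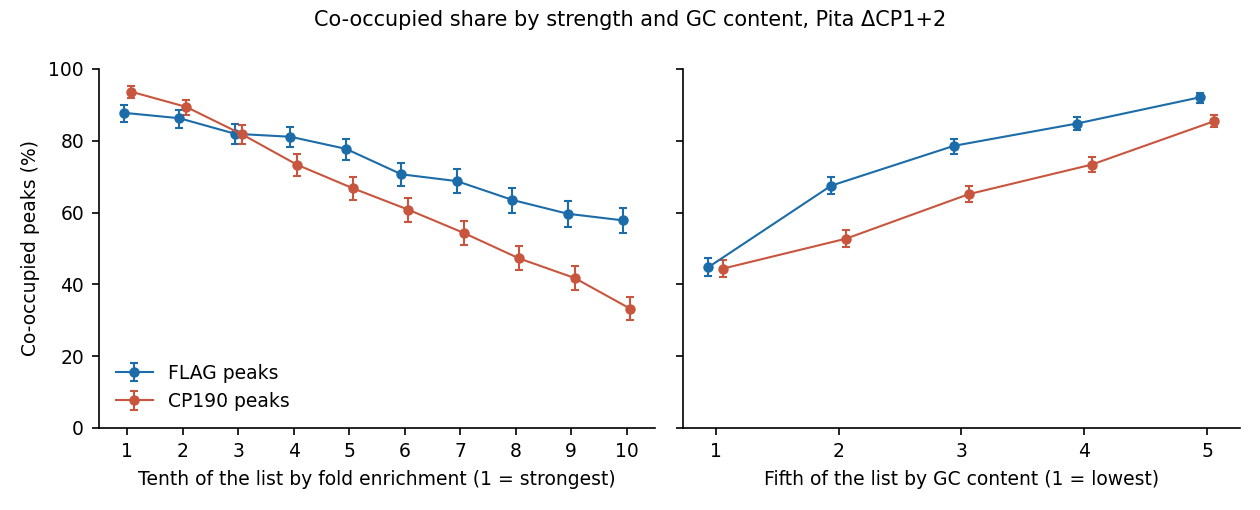
Percent of FLAG peaks (blue) and CP190 peaks (red) of Pita ΔCP1+2 that were co-occupied, in 10 bins of the fold enrichment rank (left) and 5 bins of the GC content of the summit window (right). Bars are 95% Wilson intervals; the FLAG share is 87.8% in its strongest and 57.8% in its weakest bin, and 44.8% in the lowest and 92.1% in the highest GC bin.

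FLAG and CP190 summits of a pair nearly coincided. The median distance between them was 28 bp (quartiles 12 and 56 bp), although the rule allowed up to 499 bp. Within 10 bp lay 23.2% of the pairs, within 50 bp 71.0% and within 100 bp 88.2%. The FLAG summit lay at the higher coordinate in 2723 pairs and at the lower one in 2608, with 84 at the same base, and the median signed offset, FLAG minus CP190, was 1 bp. Neither side was favoured by more than this.

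The position of a summit has a spread of its own, for which the lists carry a yardstick. The IDR pipeline, which keeps peaks that recur between 2 peak sets, writes the summit in both sets. Within the FLAG list these 2 summits lay a median of 37 bp apart (quartiles 16 and 77 bp) at the co-occupied peaks, and within the CP190 list 38 bp (16 and 79 bp). The 28 bp between the antibodies was below both values. Which peak sets were compared is not stated, and the summits of the final lists come from merged reads, so these distances are not a like-for-like replicate error.

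Wider peaks had looser summits. With the paired FLAG peaks in 5 equal bins of width, the median distance was 20 bp in the narrowest (196 to 355 bp wide), 25 bp in the next, then 30 bp, and 35 bp in the 2 widest. By FLAG rank the medians lay between 25 bp in the strongest and 33 bp in the weakest of 5 bins. Few pairs came near the limit of the rule. There were 33 pairs at 450 to 499 bp, and 37 FLAG peaks lay just outside, in the next 50 bp of distance to the nearest CP190 summit.

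**Figure D2:**
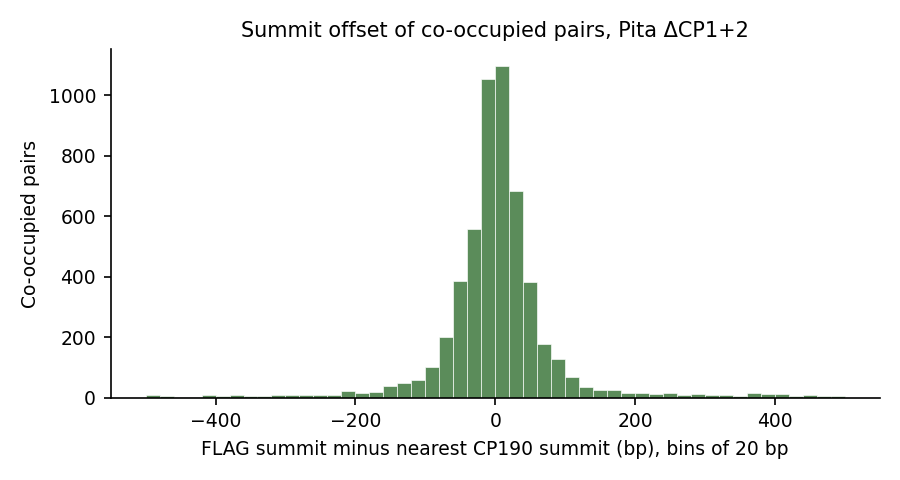
Number of co-occupied pairs of Pita ΔCP1+2 (vertical axis) by the position of the FLAG summit minus that of the nearest CP190 summit in bp (horizontal axis, bins of 20 bp). The counts are highest around 0, with a median offset of 1 bp, and 88.2% of the 5415 pairs lie within 100 bp.

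Among pairs with both ranks in the first 500, the 3 with the largest offsets outside chromosome 2R were all in coding exons. The largest was in Nrx-1 (FBgn0038975), which encodes the synaptic adhesion protein neurexin, at chr3R:22472598-22473437 (dm6). There the FLAG and CP190 summits lay 414 bp apart within 2 peaks of nearly the same extent, 840 bp for FLAG and 869 bp for CP190, with ranks of 145 and 141. In a coding exon of para, which encodes the voltage-gated sodium channel, the offset was 247 bp at chrX:16463674-16464562, and in one of crol, a zinc-finger protein gene, it was 137 bp at chr2L:11798547-11799509. In these examples both antibodies gave 1 broad region, and the summits fell at different points of it.

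Co-occupied peaks were wider than the peaks of 1 list. The deposited width had a median of 560 bp (quartiles 385.5 and 844 bp) in co-occupied FLAG peaks and 416 bp (304 and 647.5 bp) in FLAG-only peaks, a difference of 144 bp. It was 599 bp (408 and 903 bp) in co-occupied CP190 peaks and 456 bp (319 and 723 bp) in CP190-only peaks, a difference of 143 bp. Peaks over 1000 bp made up 17.2% of the co-occupied and 11.3% of the FLAG-only peaks, and 20.3% of the co-occupied and 14.4% of the CP190-only peaks. The quartile ranges overlapped broadly in both lists, so that width alone did not tell the classes apart. Width and rank were not separated here.

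Within a pair the widths went together, with a Spearman's rho of 0.872 across the 5415 pairs. The CP190 peak was the wider one in 3430 pairs and the FLAG peak in 1952, with 33 of equal width, and the median difference, FLAG minus CP190, was -17 bp. A median of 98.9% of the FLAG peak was covered by the paired CP190 peak, and 95.4% of the CP190 peak by the paired FLAG peak. In 8 pairs the deposited boundaries did not touch although the windows did.

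**Figure D3:**
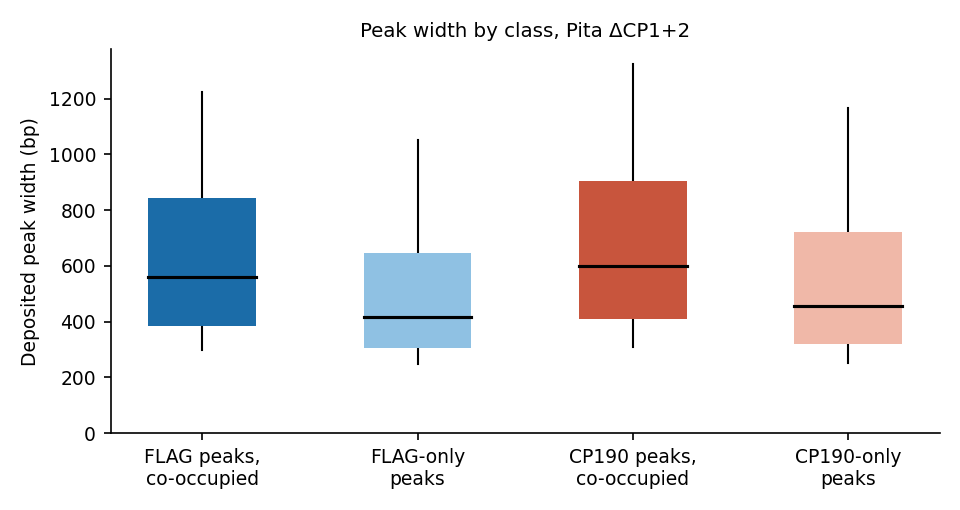
Deposited peak width in bp (vertical axis) for the 4 classes of Pita ΔCP1+2 peaks: co-occupied and FLAG-only peaks of the FLAG list, co-occupied and CP190-only peaks of the CP190 list. Boxes span the quartiles, the line is the median (560, 416, 599 and 456 bp) and the whiskers leave out 10% of the peaks on each side.

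The single peaks were mostly not near misses. The nearest CP190 summit was a median of 3322 bp from a FLAG-only summit, with 341 of the 1950 at 500 to 999 bp and 744 beyond 5000 bp. From a CP190-only summit the nearest FLAG summit was a median of 3943 bp away, with 398 of the 3014 at 500 to 999 bp and 1299 beyond 5000 bp. By deposited boundaries 245 FLAG-only and 215 CP190-only peaks touched a peak of the other list.

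Most co-occupied peaks lay in GC-rich coding exons and not at promoters. Of the 5396 co-occupied FLAG peaks on the chromosomes, 4546 (84.2%) had the summit in a coding exon, compared with 27.7% of positions 5 kb to either side and 16.6% of all bases. Among FLAG-only peaks the share was 61.6%, and among CP190-only peaks 77.6%. Summits in introns made up 5.60% of the co-occupied FLAG peaks and 17.4% of the FLAG-only peaks, and intergenic summits 5.62% and 14.7%. Read the other way, 79.2% of FLAG peaks in coding exons were co-occupied (interval 78.1 to 80.2%), 51.4% of the intergenic ones (47.4 to 55.5%) and 47.3% of those in introns (43.4 to 51.1%).

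The median GC content of the 500 bp windows was 57.8% in co-occupied FLAG peaks, 53.6% in FLAG-only peaks and 55.0% in CP190-only peaks. Windows 5 kb away had 43.2 to 44.0%, and the chromosomes as a whole 42.1%. Coding exons of Drosophila are richer in GC than introns and intergenic DNA, so that location and GC content move together in these classes, and they were not separated here. The part of GC content itself in the calling of these peaks was not tested.

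**Figure D4:**
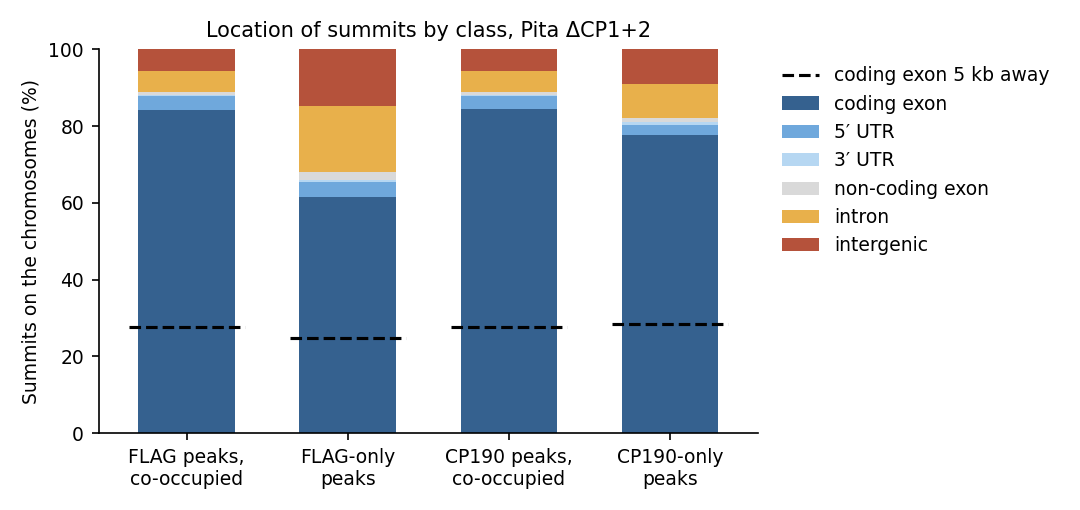
Percent of summits on the chromosomes (vertical axis) by annotated location, for the 4 classes of Pita ΔCP1+2 peaks; the dashed line is the percent of positions 5 kb away that fall in a coding exon. Coding exons hold 84.2% of co-occupied FLAG, 61.6% of FLAG-only, 84.4% of co-occupied CP190 and 77.6% of CP190-only summits.

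Few peaks of any class stood at a gene start, though no share for surrounding positions was computed to set beside these. A transcription start lay within 250 bp of the summit in 192 of 1941 FLAG-only peaks (9.89%, interval 8.64 to 11.3%) and in 327 of 5396 co-occupied FLAG peaks (6.06%, 5.45 to 6.73%). The FLAG-only summits at starts lay a median of 24 bp upstream of the start, whereas the co-occupied ones lay a median of 126 bp downstream, inside the gene. CP190-only peaks were near a start in 188 of 3008 cases (6.25%, 5.44 to 7.17%), with a median 112.5 bp downstream. Between the starts of divergent protein-coding genes at most 1000 bp apart, a common setting for CP190, there were 21 FLAG peaks in Pita ΔCP1+2. Of them 8 were co-occupied (38.1%, 20.8 to 59.1%), compared with 73.5% of all FLAG peaks. In Pita wt 48 of 53 were (90.6%, 79.7 to 95.9%), compared with 65.2%. From the CP190 side 6 of 9 were co-occupied in Pita ΔCP1+2 (66.7%, 35.4 to 87.9%). In Pita wt 52 of 72 were (72.2%, 61.0 to 81.2%), and the intervals of this side overlap. The difference between lines was not tested.

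Of the 13968 protein-coding genes, 322 (2.31%) had a co-occupied peak within 250 bp of a start, 161 (1.15%) a FLAG-only and 160 (1.15%) a CP190-only peak, so that 645 (4.62%) had any peak there. The gene lists looked at held few peaks in number, and the counts are too small to set them apart from this background. None of the 24 matched genes for insulator and architectural proteins and none of the 111 replication-dependent histone genes had a peak at a start. The authors kept only read pairs with a single concordant alignment. For repeated genes, such as these histone genes, the count therefore cannot tell missing binding from missing reads. One of the 8 homeotic genes had a peak at a start. This was Abd-B (FBgn0000015), the most posterior gene of the Bithorax complex, where a co-occupied pair at chr3R:16934205-16934607 had ranks of 2906 for FLAG and 3164 for CP190. Another Abd-B start had a FLAG peak without CP190 130 bp away, of rank 6620, at chr3R:16960312-16960597. Among 18 segmentation genes only wg, the Wnt ligand gene, had one, a CP190-only peak of rank 4345. Of 88 genes for cytosolic ribosomal proteins 3 had a peak, 1 in each class, and of 73 for mitochondrial ribosomal proteins 2 had one, both co-occupied. Of 48 proteasome genes 2 had a peak at a start, Prosalpha4T1 (co-occupied) and Prosalpha6T (CP190-only), both testis-specific subunit genes.

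FLAG-only peaks held strong Pita matches more often than co-occupied ones. A match with p under 1e-06 within 250 bp of the summit was present in 30 of 1941 FLAG-only peaks (1.55%, interval 1.08 to 2.20%) and in 16 of 5396 co-occupied FLAG peaks (0.297%, 0.183 to 0.481%). Windows 5 kb away from FLAG-only peaks held one in 0.258% of cases, and those 5 kb away from co-occupied peaks in 0.287%. The share in co-occupied peaks was thus at the level of its surroundings, and so was that of CP190-only peaks, with 7 of 3008 (0.233%, 0.113 to 0.480%) compared with 0.249%. In the co-occupied FLAG peaks 12 of the 16 matches still lay within 100 bp of the summit, at a median distance of 52.5 bp. The windows 5 kb away from these peaks had a median GC content of 43.6%, compared with 57.8%, and the part of this difference was not tested. At the loose threshold of 0.0001 the intervals of these classes overlapped, with 11.9% of FLAG-only (10.5 to 13.4%) and 10.6% of co-occupied FLAG peaks (9.77 to 11.4%), where windows 5 kb away had 5.69% and 6.17%.

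Seen from the motif, 16 of the 46 FLAG peaks with p under 1e-06 were co-occupied (34.8%, interval 22.7 to 49.2%), compared with 73.5% of all FLAG peaks of the line. The same count in the Pita wt lists was 96 of 106 (90.6%, 83.5 to 94.8%), compared with 65.2% of all Pita wt FLAG peaks. With a transcription start within 250 bp the figures were 8 of 32 (25.0%, 13.3 to 42.1%) in Pita ΔCP1+2 and 62 of 65 (95.4%, 87.3 to 98.4%) in Pita wt. Without a start within 250 bp they were 8 of 14 (57.1%, 32.6 to 78.6%) in Pita ΔCP1+2 and 34 of 41 (82.9%, 68.7 to 91.5%) in Pita wt. The intervals of the lines do not overlap over all strong matches and at starts, and they overlap away from starts. They hold no replicate error, and the difference between lines was not tested. With the 5000 strongest peaks of each Pita ΔCP1+2 list, 9 of 40 such peaks were co-occupied (22.5%) and 66.3% of all FLAG peaks. The CP190 side did not have this low share. Of the CP190 peaks with such a match, 16 of 23 were co-occupied in Pita ΔCP1+2 (69.6%, 49.1 to 84.4%), compared with 64.2% of all. In Pita wt 98 of 134 were (73.1%, 65.1 to 79.9%), compared with 68.2%, and these intervals of the lines overlap.

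The lower share of FLAG peaks with a strong match was also found among strongly enriched peaks. Among the first 500 FLAG peaks, 7 of 17 with a strong match were co-occupied (41.2%, 21.6 to 64.0%), whereas 377 of 416 without a match at 0.0001 were (90.6%, 87.4 to 93.1%). The 30 FLAG-only peaks with a strong match had ranks between 37 and 6158, a median GC content of 41.8% and a median width of 384 bp. A start lay within 250 bp of 24 of them and 1 had its summit in a coding exon. The match lay a median of 37.5 bp from the FLAG summit and within 100 bp in 25, and the nearest CP190 summit was a median of 6599.5 bp away.

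The strong matches were mostly in the settings where co-occupancy was low for other FLAG peaks too, so the shares were also set beside FLAG peaks of the same setting without a match of p under 1e-06, a comparison chosen after the data were seen. Outside coding exons 11 of 40 FLAG peaks with a strong match were co-occupied (27.5%, 16.1 to 42.8%), and 839 of 1555 without one (54.0%, 51.5 to 56.4%). In coding exons 5 of 6 with a match were co-occupied, near the 79.2% of all coding exon peaks. In windows of at most 52.6% GC the counts were 10 of 37 with a match (27.0%, 15.4 to 43.0%) and 690 of 1502 without (45.9%, 43.4 to 48.5%). At starts they were 8 of 32 with a match and 319 of 487 without (65.5%, 61.2 to 69.6%). With all 3 conditions at once, the shares were 7 of 31 with a match (22.6%, 11.4 to 39.8%) and 47 of 115 without (40.9%, 32.3 to 50.0%), and these intervals overlap. Peaks of the same location and base composition without a strong match thus also lay below the 73.5% of all FLAG peaks. They can hold weaker matches, and the parts of match, location and base composition were not tested. In the Pita wt lists the same conditions on location and start were used, with a GC limit of 51.6%. Each limit is the top of the lowest of 5 GC bins of its own FLAG list. The Pita wt counts were 60 of 63 with a match (95.2%, 86.9 to 98.4%) and 92 of 147 without (62.6%, 54.5 to 70.0%).

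**Figure D5:**
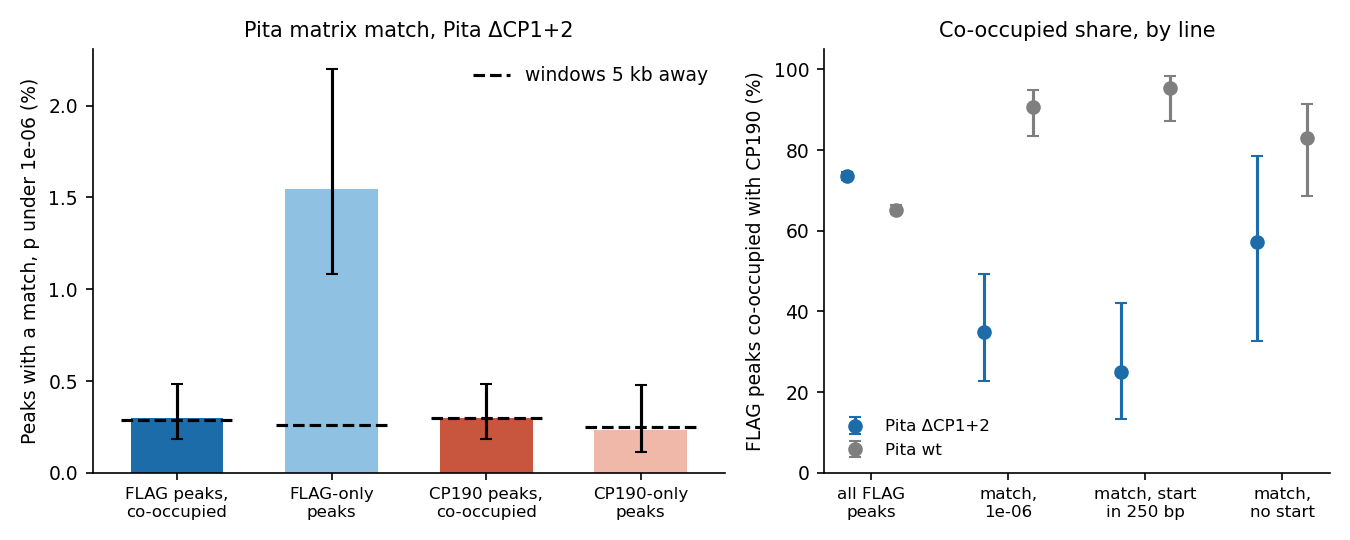
Left, percent of peaks with a Pita matrix match of p under 1e-06 within 250 bp of the summit in the 4 classes of Pita ΔCP1+2, with windows 5 kb away as dashed lines. Right, percent of FLAG peaks co-occupied with CP190 among all FLAG peaks, those with such a match, and those with it and with or without a transcription start within 250 bp, in Pita ΔCP1+2 (blue) and Pita wt (grey); bars are 95% Wilson intervals. FLAG-only peaks stand at 1.55%, and peaks with a match are co-occupied in 34.8% of cases in Pita ΔCP1+2 and 90.6% in Pita wt.

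Where a strong match was co-occupied, the FLAG peak was often placed higher in its list than the CP190 peak. Since the lists differ in length, ranks were also taken as a percent of the list. In these terms the medians of the 16 pairs were 13.4% for FLAG and 31.9% for CP190, and CP190 had the lower place in 11 of 16. Over all 5415 pairs the medians were 43.9% for FLAG and 37.6% for CP190, and CP190 had the lower place in 2155. With the match taken from the FLAG window, the paired CP190 peaks were thus not weaker at the median than all paired CP190 peaks. With the match sought in the window of the CP190 peak itself, the order turned. The 16 co-occupied CP190 peaks with such a match had a median rank of 4037.5, compared with 3184 for all co-occupied CP190 peaks. At Atg8a (FBgn0052672), an autophagy gene, both were strong, with a FLAG peak of rank 3 and fold enrichment 6.68 at chrX:10768049-10769892, 84 bp upstream of the start, and a CP190 peak of rank 9 and fold 5.10 whose summit was 8 bp away. At cib (FBgn0026084), which encodes an actin-binding protein, the FLAG peak at chrX:4105749-4106225 had rank 4 and fold 5.82, and the CP190 peak, 2 bp away, had rank 661 and fold 2.70. At ATPsynC (FBgn0039830), the gene for subunit c of the mitochondrial ATP synthase, FLAG at chr3R:31219237-31219869 had rank 9 and fold 5.05, and CP190, 12 bp away, had rank 5336 and fold 1.97. The summits of these 3 pairs coincided within 12 bp while their ranks in the 2 lists were close at Atg8a and far apart at ATPsynC.

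The 3 strongest FLAG-only peaks with such a match outside chromosome 2R stood right at promoters. Socs36E (FBgn0041184), an inhibitor of JAK/STAT signalling, had a FLAG peak of rank 37 and fold 3.57 at chr2L:18152180-18152716, 74 bp upstream of the start, with the nearest CP190 summit 10531 bp away. Sxl (FBgn0264270), the master gene of sex determination, had one of rank 93 and fold 3.23 at chrX:7098004-7098273, 114 bp upstream of a start, with the nearest CP190 summit 1697 bp away. CG42788 (FBgn0261859) had one of rank 108 and fold 3.19 at chr3R:15131556-15132100, 27 bp upstream of its start, with 11545 bp to the nearest CP190 summit. All 3 had the summit in an intergenic position. The ribosomal protein gene RpL30 (FBgn0086710) belongs to the same kind, with a FLAG-only peak of rank 3435 and fold 2.05, 41 bp from its start, and a match of p 5.96e-08.

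By rank alone, the strongest FLAG-only peaks outside chromosome 2R were of several kinds. The first, of rank 6 and fold 5.31, lay in an intron of lab (FBgn0002522), a homeotic gene of the Antennapedia complex, at chr3R:6672513-6673058, 4633 bp from the nearest CP190 summit. It held a match of p 9.66e-06. Next came promoter peaks of cindr (FBgn0027598), an adaptor of the actin cytoskeleton, with rank 10 and fold 4.98 at chr3R:30808422-30808848, and of Sox21a (FBgn0036411), a SOX transcription factor gene, with rank 12 and fold 4.88 at chr3L:14108046-14108476. Their summits lay 62 and 172 bp upstream of the starts. The cindr peak held a match of p 6.99e-06, while the best match at Sox21a had p 0.000452. Unlike these narrow peaks, that of rank 15 in a coding exon of Col4a1 (FBgn0000299), a collagen IV gene, was 5295 bp wide (chr2L:5030739-5036033, fold 4.15), and its nearest CP190 summit lay 2865 bp away. The best match at Col4a1 had p 0.00254. PhKgamma (FBgn0011754), a phosphorylase kinase subunit gene, followed at rank 20 with its summit 114 bp upstream of the start. The PhKgamma peak held a match of p 1.06e-06. The nearest CP190 summit was 1316 bp away.

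The strongest CP190 peak of the line was itself CP190-only. It had a fold enrichment of 12.8 and lay at chrX:5524423-5524891, in an intergenic position 228 bp upstream of a small nucleolar RNA gene, snoRNA:Psi28S-3342 (FBgn0086667), and 5120 bp from the nearest FLAG summit. The next 4 outside chromosome 2R ranked 13, 14, 16 and 17, near CG43658, CG17129, CG34435 and Notch (N, FBgn0004647), the receptor gene, with folds between 4.18 and 4.55. All 5 summits were outside coding exons, with 3 among them within 1000 bp of the nearest start. At N the peak at chrX:3134531-3135006 stood 125 bp upstream of the start and held a match of p 2.34e-05, with its centre 1 bp from the CP190 summit, while the nearest FLAG summit was 2602 bp away.

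Among the very strongest peaks, co-occupancy was less complete outside coding exons. Among the first 100 FLAG ranks, which hold 101 peaks through ties, 67 of 72 coding exon peaks were co-occupied (93.1%, interval 84.8 to 97.0%), whereas outside coding exons 12 of 22 were (54.5%, 34.7 to 73.1%). The first 100 CP190 peaks gave 73 of 74 (98.6%, 92.7 to 99.8%) in coding exons and 11 of 20 (55.0%, 34.2 to 74.2%) outside. The share outside depended on how many peaks were taken. In the first 1000 ranks it was 145 of 207 for FLAG (70.0%, 63.5 to 75.9%) and 123 of 144 for CP190 (85.4%, 78.7 to 90.3%). In the Pita wt lists, by contrast, the strongest 100 CP190 peaks held only 5 coding exon peaks, compared with 74 of the 94 on the chromosomes in Pita ΔCP1+2, and the strongest 100 FLAG peaks held 35, compared with 72 of 94. Outside coding exons 54 of 65 were co-occupied from the FLAG side (83.1%, 72.2 to 90.3%) and 76 of 95 from the CP190 side (80.0%, 70.9 to 86.8%) in Pita wt. In the first 1000 ranks of Pita wt the shares were 71.8% for FLAG (66.5 to 76.6%), close to that of Pita ΔCP1+2, and 70.5% of 363 peaks for CP190, below it. The fold enrichments of separate lists are not on one scale, and these are counts within each list.

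Short words known from other factors were counted in the same windows. Each was searched on both strands of the 500 bp windows. ATCGATA, the core of the DREF site, which also contains CGATA, the core of the BEAF-32 site, was in 3.11% of co-occupied FLAG, 5.82% of FLAG-only and 4.55% of CP190-only windows, and in 6.20 to 6.98% of windows 5 kb away. TGCATA, the core of the Su(Hw) site, was in 11.4%, 15.4% and 14.1%, and in 26.0 to 26.6% of windows 5 kb away. Both words are rich in A and T, and the windows are rich in GC. CAGGTAG, the word of the early activator Zelda, was more frequent than in its surroundings in all 3 classes (5.76%, 4.95% and 4.92%, with 2.89 to 3.26% 5 kb away). This was not particular to CAGGTAG. The word GGTCACA was in 5.89%, 6.03% and 5.19% of windows, with 4.54%, 4.89% and 4.62% 5 kb away. Its interval in CP190-only windows (4.45 to 6.04%) included the value 5 kb away. The part of base composition in these differences was not tested. GAGAG, the core of the GAGA factor site, was in 53.7% of FLAG-only (51.5 to 56.0%) and in 48.2% of co-occupied FLAG windows (46.9 to 49.5%), with 45.4% and 44.8% 5 kb away. A match is a description of the letters and not a bound site.

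The 5 large chromosome arms were alike. The co-occupied share of FLAG peaks was 72.2% on X, 74.9% on 2L, 75.3% on 2R, 74.0% on 3L and 71.9% on 3R, and that of CP190 peaks lay between 63.2% on 3R and 65.2% on X. Wilson intervals of the highest and lowest arm overlapped in both lists. Co-occupied FLAG peaks numbered 37.4 to 44.0 per Mb on these arms. X differed in width, with medians of 645 bp for co-occupied FLAG, 479 bp for FLAG-only, 697 bp for co-occupied CP190 and 535 bp for CP190-only peaks, each the largest of the 5 arms. The median summit distance was 30 bp on X and 26 to 28 bp on the autosomal arms.

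The small and repeat-rich sequences held few peaks. Chromosome 4 had 5 FLAG and 5 CP190 peaks, of which 2 on either side were co-occupied, or 1.48 per Mb. The assembled Y chromosome had 1 peak in each list, and these formed a pair with summits 97 bp apart. The mitochondrial genome had 1 FLAG peak, of rank 219 and 1520 bp wide, and no CP190 peak in the list.

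Unplaced scaffolds, which are pieces of the assembly without a position on a chromosome, carried 27 FLAG and 25 CP190 peaks on 29 sequences, and 19 peaks of either list were co-occupied. The shares, 70.4% of FLAG (interval 51.5 to 84.1%) and 76.0% of CP190 peaks (56.6 to 88.5%), have intervals that include the values of the whole lists. Strength and width stood apart. The co-occupied FLAG peaks there had a median fold enrichment of 2.91 and a median width of only 280 bp, and their summits lay a median of 6 bp from those of CP190, with 16 of 19 within 15 bp. The FLAG-only peaks there, 8 in number, had a median fold of 2.13 and at most 3.08.

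The strongest FLAG peak of the line was on a scaffold assigned to Y, with a fold enrichment of 11.5 for FLAG (rank 1) and 11.1 for CP190 (rank 2) and summits 6 bp apart. A second Y scaffold gave folds of 11.3 for FLAG and 10.5 for CP190, ranks 2 and 3, with summits 2 bp apart. Another Y scaffold carried 2 pairs. One had folds of 5.74 for FLAG and 5.44 for CP190, with ranks of 5 and 6. The other had 5.06 for FLAG and 5.46 for CP190, with ranks of 8 and 5, and its peaks, 2088 and 2089 bp wide, were the broadest on the unplaced scaffolds. Outside chromosome 2R, 2 more pairs had both ranks in the first 10, that at Atg8a and one on X at chrX:23347955-23348321, whose summit is in an annotated copy of the transposable element aurora and whose nearest gene start, that of a 2S ribosomal RNA gene, is 56432 bp away. There FLAG had rank 7 with a fold of 5.23 and CP190 rank 8 with a fold of 5.15, and the summits were 1 bp apart. The copy number of these sequences was not analysed here, and its part in the folds was not tested. Annotations of the scaffolds were not used here.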

How the data were processed

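FLAG and CP190 ChIP-seq peaks of Pita ΔCP1+2 embryos were compared, with Pita wt lists beside them. Per the labels and methods, the authors trimmed reads (cutadapt), mapped them to dm6 (Bowtie2), retained pairs with a single concordant alignment, marked and removed duplicates (Picard), dropped blacklisted regions, called peaks (MACS2) on 1 preimmune control and merged 2 replicates by the IDR pipeline at 0.05. The deposited values are the fold enrichment ratio, the −log10 p-value and an IDR score, all the authors' own. Reads from repeats with several alignments do not count in these peaks.

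Windows, offsets, widths, locations (Ensembl release 115, the same assembly; pseudogenes and transposable elements left out) and matrix matches (exact p of the score, equal base frequencies; genome of the reference assembly, release 6) were computed with Python 3.11.15, numpy 2.4.6 and pandas 2.3.3, figures with matplotlib 3.10.9. In simulated data 2000 of 2000 pairs were classified as planted and 500 of 500 planted matches, each the best word, were found.

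Named sites are, outside 2R, the 8 strongest co-occupied pairs, the 5 strongest FLAG-only and CP190-only peaks, the 3 strongest of each class with a match of p under 1e-06, the 3 pairs of largest offset with both ranks in the first 500, and the strongest on unplaced scaffolds. Only examples are described, and gene lists name at most 3 genes. The members and lists were chosen with earlier results of these data known. Read coverage tracks were not analysed here.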

Additional observations from a re-analysis of the deposited data

How the results depend on the processing

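The settings tried were windows of 100 bp on each side, an overlap of at least 250 bp, deposited boundaries, the 5000 peaks of largest fold in each list, a global IDR of at most 0.01, assembled chromosomes only, and the strongest peak where summits of 1 list lay under 500 bp apart. In this order, the first 5 moved the co-occupied share beyond its counting interval, to 69.6%, 70.6%, 76.7%, 66.3% and 70.8% of FLAG peaks and to 60.8%, 61.7%, 66.6%, 66.2% and 61.4% of CP190 peaks. Deposited boundaries moved the median summit distance to 30 bp and the 5000 strongest peaks to 25 bp. The width difference between co-occupied and FLAG-only peaks became 90 bp with 100 bp windows, 106.5 bp with the 250 bp overlap and 181.5 bp with deposited boundaries. Between co-occupied and CP190-only peaks it became 98.5, 115 and 176 bp in these settings and 118 bp at an IDR of 0.01. The settings for FLAG peaks with a strong Pita match were added after the data were seen, and the share moved only with the 5000 strongest peaks, to 22.5%. The excess of FLAG-only over co-occupied peaks at transcription starts (3.83 percentage points) and with a Pita match at 0.0001 (1.34 points) kept its direction under all settings tried for them, but the excess of matches was 0.02 points when the search covered the deposited boundaries plus 250 bp. For starts within 500 bp the excess was 2.72 points, and the Wilson intervals of the classes overlapped. No paired analysis was possible because the lists analysed here merge the replicates of each antibody and line and no values per replicate were used, so no replicate was left out. The depth of the libraries was not analysed here, so a missing peak can be a weak one.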
